A study of Mus musculus with 13 samples.

Results

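The miR-26 and miR-101 families were followed in small RNA sequencing libraries of thymic invariant natural killer T (iNKT) cells, T cells whose invariant receptor recognizes lipids presented by CD1d. Members were chosen by name. They were the hairpins mmu-mir-26a-1, mmu-mir-26a-2, mmu-mir-26b, mmu-mir-101a and mmu-mir-101b, in which mmu stands for mouse and is left out hereafter, 5 of the 1127 hairpins counted, and every mature sequence named miR-26a, miR-26b, miR-101a, miR-101b or miR-101c, 10 of the 1297 mature sequences counted. A hairpin is the sequence of a precursor, and its counts are of reads matched to it, which need not come from uncut precursors. All 5 hairpins and 5 of the 10 mature sequences had enough counts to be tested, out of 350 hairpins and 401 mature sequences tested in all. The cells came from 6 wild type (WT) C57BL/6 mice and 7 Tet2/3 double knockout (DKO) mice, Tet2-/-Tet3flx/flx with CD4 cre, with 1 library per mouse. In the DKO mice Tet2 was deleted in the whole animal, whereas the CD4 cre transgene deletes Tet3 in T cells from the stage at which CD4 is expressed, so that iNKT cells developed from precursors that already lacked TET2. Mice were 21 to 25 days old and of both sexes, the labels give no treatment, and cells were sorted as live TCRβ+ cells that bound the loaded CD1d tetramer after CD24+ thymocytes had been depleted.

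A miRNA guides the silencing complex to messenger RNAs, mostly through its seed (bases 2 to 8 from the 5′ end), which pairs with matching sites in the 3′ untranslated region (UTR). MiR-26 and miR-101 are both known to repress Ezh2, the catalytic subunit of Polycomb repressive complex 2, which methylates histone H3 on lysine 27, and miR-26 is also known to target transcripts of the TET enzymes, which oxidize 5-methylcytosine. Ezh2 and Tet transcripts and their proteins were not analysed here, and the values below are of the miRNAs alone.

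The mature sequences that carry the results are shown so that the seed of each family can be compared, with the seed in capitals. They were taken from RefSeq (GRCm38.p6), where 10 of the 10 mature members and 5 of the 5 hairpins had an entry.
miR-26a-5p: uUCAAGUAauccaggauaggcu
miR-26b-5p: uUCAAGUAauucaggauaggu
miR-26b-3p: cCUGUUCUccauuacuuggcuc
miR-101a-3p: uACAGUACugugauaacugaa
miR-101b-3p: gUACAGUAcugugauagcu
miR-101c: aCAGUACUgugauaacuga
miR-26a-5p and miR-26b-5p shared the seed UCAAGUA, which no other of 1679 mature mouse sequences had. Counted from 1 at the 5′ end of miR-26a-5p, they had the same base at 19 of 21 aligned positions and differed by C11U and C21U, both outside the seed. MiR-101a-3p and miR-101b-3p did not share a seed in the strict sense, because miR-101b-3p as listed starts 1 base earlier. Over the 18 positions at which they could be aligned, 17 were identical and the difference was A16G, counted along miR-101a-3p. MiR-101b-3p was also short, with 19 bases, a length that only 20 of 1078 listed mature sequences (1.855%) had or fell below, against a median of 22 bases. All 19 bases of miR-101c lie within miR-101a-3p, so that a read trimmed at its ends could match both.

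The hairpins are shown with the mature 5p sequence of mir-26 or the mature 3p sequence of mir-101 in capitals, since the members were counted on both kinds of sequence and since the copies of mir-26a differ only outside it.
mir-26a-1: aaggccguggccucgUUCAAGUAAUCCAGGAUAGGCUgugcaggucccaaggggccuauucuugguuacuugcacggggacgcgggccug
mir-26a-2: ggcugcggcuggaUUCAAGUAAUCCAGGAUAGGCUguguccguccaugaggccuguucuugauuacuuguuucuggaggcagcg
mir-26b: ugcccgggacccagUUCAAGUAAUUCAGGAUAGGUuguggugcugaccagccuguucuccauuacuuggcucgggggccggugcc
mir-101a: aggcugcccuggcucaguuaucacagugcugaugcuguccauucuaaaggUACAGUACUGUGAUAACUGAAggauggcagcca
mir-101b: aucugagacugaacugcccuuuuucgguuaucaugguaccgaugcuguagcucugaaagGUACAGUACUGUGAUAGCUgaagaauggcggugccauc
In GRCm38.p6, Mir26a-1 lies on the plus strand at chr9:119031796-119031885 in an intron of Ctdspl, and Mir26b on the plus strand at chr1:74394310-74394394 in an intron of Ctdsp1. Mir26a-2 lies on the plus strand at chr10:126995530-126995613 within Ctdsp2, where it overlaps exons of a protein-coding and of a retained-intron transcript. The 3 host genes encode related small phosphatases of the RNA polymerase II C-terminal domain. Mir101a lies on the minus strand at chr4:101346945-101347027 in an exon of the long non-coding RNA E130102H24Rik, and Mir101b on the plus strand at chr19:29135279-29135375 in an intron of Rcl1, a gene of ribosomal RNA processing. The 5 hairpins thus lie on 5 chromosomes. The longest run of bases shared by mir-26a-1 and mir-26a-2 was 25 bases, against 20 for mir-101a and mir-101b and 11 for mir-26a-1 and mir-26b.

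Sites that match these seeds were looked for in the 3′ UTRs of Ezh2, Tet1, Tet2 and Tet3, the genes named above as targets. The longest annotated 3′ UTR of each of 20996 protein-coding genes was searched on the transcript strand for TACTTGA (miR-26), GTACTGT (miR-101a-3p) and TACTGTA (miR-101b-3p), and a GTACTGT followed by A also holds TACTGTA. The Ezh2 3′ UTR (402 bases) held 1 match to miR-26 and 2 to miR-101a-3p, and 1 of the latter also matched miR-101b-3p. Among 3′ UTRs within 20% of its length, 2.89% held TACTTGA, 2.73% GTACTGT and 2.67% TACTGTA. The matches are shown with the 15 bases before and 1 base after, and the match in capitals.
Ezh2, miR-26, chr6:47530286-47530308, minus strand: aatttgaataaagaaTACTTGAa
Ezh2, miR-101a-3p, chr6:47530475-47530497, minus strand: cttcaggaaccttgaGTACTGTg
Ezh2, miR-101a-3p and miR-101b-3p, chr6:47530420-47530442, minus strand: ttctgaatttgcaaaGTACTGTa
Tet2, miR-26, chr3:133464021-133464043, minus strand: gcttggtgtcaacatTACTTGAa
Tet3, miR-26, chr6:83362803-83362825, minus strand: tgaacttaacaaccaTACTTGAa
Tet1, Tet2 and Tet3 each held 2 matches to miR-26, of which 1 is shown for Tet2 and for Tet3. Their 3′ UTRs are long, and TACTTGA was in 45.2%, 19.9% and 34.4% of 3′ UTRs of similar length to those of Tet1, Tet2 and Tet3, respectively. GTACTGT (miR-101a-3p) was found once in Tet2 and in neither Tet1 nor Tet3, whereas TACTGTA (miR-101b-3p) was found 2 times in Tet1, 3 times in Tet2 and once in Tet3, where 53.2%, 24.7% and 40.4% of 3′ UTRs of similar length held it. A match is a description of the sequence and not evidence of binding.

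Counts per library ranged from 469117 to 1110226 in WT and from 728653 to 1910526 in Tet2/3 DKO for hairpins, and from 1110852 to 2582057 in WT and from 1837631 to 4361963 in Tet2/3 DKO for mature sequences. The WT libraries were shallower at the median in both, although the ranges overlapped. Levels are given as CPM, the count of a miRNA scaled to a common library size, after TMM scaling, which equalizes libraries on the assumption that most miRNAs do not differ. A log2 fold change is that of Tet2/3 DKO against WT, so a negative value is lower in the knockout. It is relative to all the miRNAs counted beside it rather than an amount per cell, and less RNA per cell cannot be told apart from a smaller number of cells that express it. Genotypes were compared by edgeR's quasi-likelihood test, with Benjamini-Hochberg adjustment over all hairpins or all mature sequences tested and a threshold of 0.05 on the adjusted p. All 5 lymphoid miRNAs examined were present, and miR-150-5p, miR-142a-3p, miR-142a-5p, miR-181a-5p and miR-181b-5p together made up 189525 to 252211 CPM in WT and 167957 to 231881 CPM in Tet2/3 DKO libraries, most of it miR-181a-5p. Of the 5, miR-150-5p was lower in the knockout without overlap (-1.18 on the log2 scale, adjusted p = 3.58e-05) and miR-142a-3p was lower with overlap (-0.41, adjusted p = 0.00241), and the other 3 did not pass the test.

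Both mature miR-26 sequences of the 5p arm were lower in Tet2/3 DKO iNKT cells, and miR-26b-5p fell further than miR-26a-5p. The level of miR-26a-5p was 37799.5 CPM in the lowest WT library, 47194 CPM at the median and 56759 CPM in the highest, against 26548, 29612 and 34595 CPM in Tet2/3 DKO. Every WT library was therefore above every knockout library on this scale. The means were 47864 ± 6486 CPM (SD, n = 6) and 30038 ± 2875 CPM (SD, n = 7). On the log2 scale miR-26a-5p fell by 0.67 (SE 0.106), with an adjusted p = 1.82e-05. MiR-26a-5p was the most abundant member, sixth among the tested mature sequences in WT and eighth in Tet2/3 DKO by mean CPM. It took 4.36% ± 0.445 (SD, n = 6) of all mature counts of WT mice and 3.26% ± 0.418 (SD, n = 7) of those of knockout mice. Without TMM scaling these shares overlapped, because the lowest WT library held 3.53% and the highest knockout library 3.78%.

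MiR-26b-5p had 9270 CPM (lowest), 14729 CPM (median) and 17877 CPM (highest) in WT, against 5403, 5787 and 6772 CPM in the knockout. No WT library was within the knockout range, and the WT libraries were spread more widely than the knockout ones. The means were 14241 ± 2998 CPM (SD, n = 6) and 5996 ± 534 CPM (SD, n = 7), a 2.38-fold lower mean in the knockout. On the log2 scale it fell by 1.25 (SE 0.125), with an adjusted p = 5.68e-08. Its share of mature counts was 1.29% ± 0.229 (SD, n = 6) for WT and 0.650% ± 0.0793 (SD, n = 7) for the knockout, and these unscaled shares did not overlap either, with 0.866% in the lowest WT library and 0.712% in the highest knockout library.

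MiR-26b-3p, the passenger strand of the mir-26b hairpin, was rare, with 31 to 73 counts in each WT library and 16 to 71 in each knockout library. Its level was 19.7, 25.01 and 37.3 CPM (lowest, median and highest) in WT and 5.69, 9.87 and 18.1 CPM in Tet2/3 DKO. It fell by 1.44 on the log2 scale (SE 0.311), with an adjusted p = 0.000518, and the genotypes did not overlap. Both strands of mir-26b were thus lower in the knockout. The 3p strands of the mir-26a copies were too rare to be tested, with summed counts of 1 in WT and 4 in Tet2/3 DKO for miR-26a-1-3p, and of 10 and 60 for miR-26a-2-3p.

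Mature miR-101 did not pass the test in either form. MiR-101a-3p had 45.4, 54.8 and 79.9 CPM (lowest, median and highest) in WT and 38.1, 53.3 and 71.8 CPM in Tet2/3 DKO. The genotypes overlapped over most of their range. The means were 59.7 ± 13.3 CPM (SD, n = 6) and 54.7 ± 12.3 CPM (SD, n = 7), and the difference on the log2 scale was -0.13 (SE 0.195, adjusted p = 0.603), whose 95% interval ran from -0.53 to 0.28. A fall of the size measured for miR-26b-5p lies outside this interval, whereas one of about 0.5 on the log2 scale does not. When libraries were scaled by size only, the sign turned, to 0.13 (adjusted p = 0.632).

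MiR-101b-3p had 43.9, 59.7 and 71.4 CPM (lowest, median and highest) in WT and 21.3, 46.2 and 59.2 CPM in Tet2/3 DKO. The lowest knockout libraries were below all WT libraries, but the highest ones were within the WT range. The means were 58.8 ± 11.2 CPM (SD, n = 6) and 42.3 ± 12.8 CPM (SD, n = 7), and the log2 fold change of -0.47 (SE 0.221, 95% interval -0.93 to -0.01) missed the threshold (adjusted p = 0.0752). It rested on 72 to 149 counts in each WT library and 85 to 231 in each knockout library. The call depended on the libraries and settings used. The adjusted p was 0.0411, 0.0306, 0.0424 and 0.0182 without WT 3, WT 5, WT 6 and DKO 7, in turn, 0.0387 with upper-quartile factors (-0.61) and 0.025 with limma-voom (-0.57). Summed over the libraries of a genotype, miR-101a-5p had 10 counts in WT and 6 in the knockout, miR-101b-5p 0 and 1, and miR-101c 0 and 4, and these were not tested. A count of 0 over the 6 WT libraries allows a share of up to 2.58e-05% of mature counts, for counting error only.

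**Figure D1:**
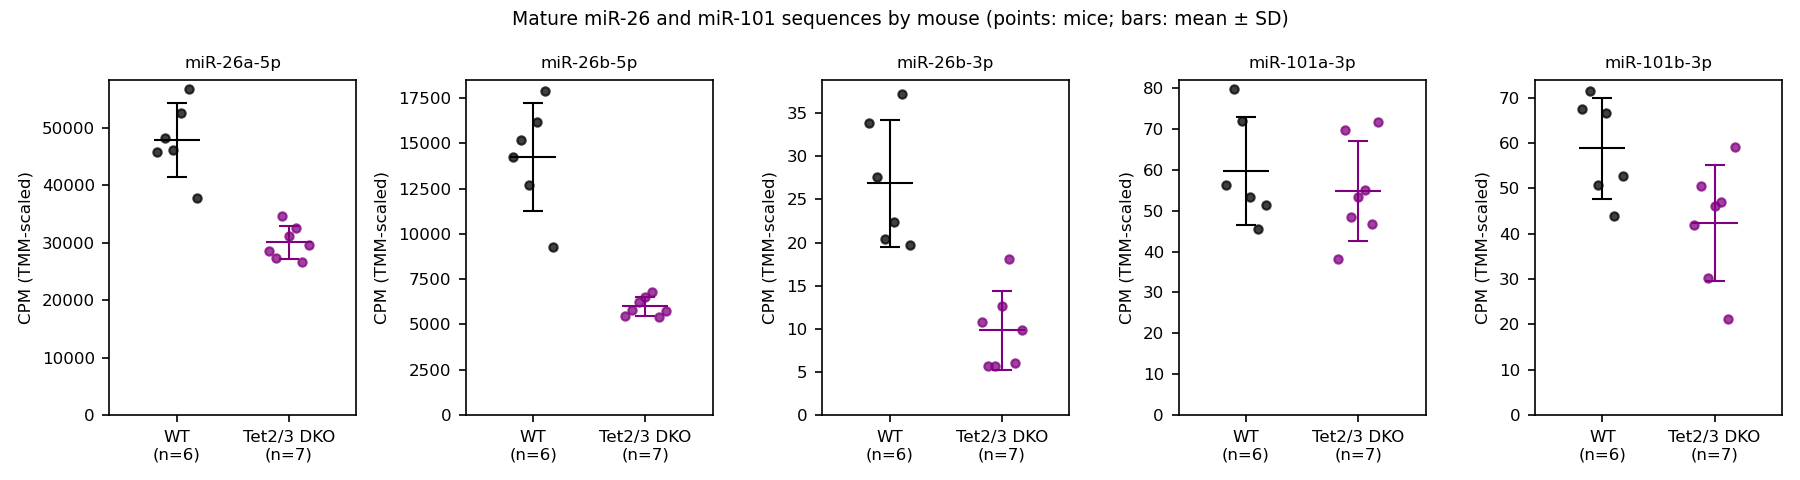
Level of the 5 tested mature members in CPM after TMM scaling (linear vertical axes from 0), with 1 point per mouse and horizontal bars for the mean and SD of 6 WT (black) and 7 Tet2/3 DKO (purple) mice. The genotypes do not overlap for miR-26a-5p, miR-26b-5p and miR-26b-3p, whereas they overlap for miR-101a-3p and miR-101b-3p.

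Of the 5 tested mature members, 3 were called lower and 0 higher in Tet2/3 DKO, where 27.4% of all tested mature sequences were called lower and 28.2% higher. The same 3 did not overlap between genotypes, as did 14.5% of all tested sequences in that direction. Changes were widespread in these libraries, and a call by itself does not set the members apart. At an unadjusted p under 0.05 the count of higher members was also 0, since none had a positive log2 fold change, and DESeq2 and limma-voom called 0 higher. No member passed an absolute log2 fold change of 2, a size that 11.2% of all tested mature sequences exceeded with a call. The median log2 fold change of the tested members was -0.67, against -0.01 over all tested mature sequences.

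Summed over both 5p sequences, miR-26 took 5.65% ± 0.666 (SD, n = 6) of the mature counts of WT mice and 3.91% ± 0.489 (SD, n = 7) of those of knockout mice, or 62105 ± 9423 and 36033 ± 3309 CPM. Because both sequences have one seed, this sum is the level of the seed UCAAGUA. The 3p sequences of miR-101 summed to 119 ± 20.9 CPM (SD, n = 6) for WT and 97.1 ± 23.1 CPM (SD, n = 7) for the knockout. These 4 mature sequences have nearly one length, from 19 to 22 bases, and miR-26 had by far the higher summed CPM in both genotypes. How well each sequence was captured and matched was not measured. Hairpin mir-101b had 8.35 to 31.0 hairpin counts per count of miR-101b-3p, and whether the miR-101 sum is too low was not tested.

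The composition of the miR-26 family differed between genotypes, and this comparison does not depend on how libraries are scaled. Counts of miR-26b-5p were 24.5% to 31.5% of those of miR-26a-5p in WT libraries and 18.1% to 21.1% in Tet2/3 DKO libraries, without overlap. The mean log2 ratio differed by -0.56 (SE 0.0654), with p = 0.00117 by an exact two-sided permutation test over 1716 splits of the 13 mice, the smallest p these splits can give, and an adjusted p = 0.00816 by the permutation test over the 7 ratios tested. MiR-26b-5p thus made up 22.7% ± 1.75 (SD, n = 6) of the miR-26 5p counts of WT mice and 16.7% ± 0.803 (SD, n = 7) of those of knockout mice. In the miR-101 family the ratio of miR-101b-3p to miR-101a-3p differed by -0.39 (SE 0.201) and did not pass (exact permutation test, p = 0.0711, adjusted p = 0.114). This ratio passed the threshold without WT 3 (-0.49, adjusted p = 0.0398 by the exact permutation test) and without DKO 1 (-0.48, adjusted p = 0.0364 by the exact permutation test).

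Ratios of strands from one hairpin did not pass the test. Counts of miR-26b-3p were 0.138% to 0.237% of those of miR-26b-5p in WT and 0.0908% to 0.268% in Tet2/3 DKO, with a difference of -0.30 in mean log2 ratio (SE 0.262, exact permutation test, p = 0.262, adjusted p = 0.262). The summed 3p counts of miR-26a to those of miR-26a-5p gave 1.30 (SE 0.765, exact permutation test, p = 0.113, adjusted p = 0.132), at 0 to 25 counts of miR-26a-2-3p per library. Without DKO 7, in which miR-26a-2-3p had 0 counts, that difference was 1.77 (adjusted p = 0.0379 by the exact permutation test). The summed 3p counts were only 0 to 6 per WT library, and the minimum median for testing was met in the knockout alone. At so few counts the WT log2 ratios rest largely on the constant added to each count. Neither value of this ratio can therefore decide whether the genotypes differ. Another 3 ratios of the 10 listed had too few counts to be tested.

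The hairpins of miR-26 were lower in Tet2/3 DKO as well. The fall of hairpin mir-26b was the smaller one beside that of miR-26b-5p, a difference between tables that was not tested. Hairpin mir-26b had 8797, 10521 and 15726 CPM (lowest, median and highest) in WT and 5733, 6496 and 7854 CPM in Tet2/3 DKO, without overlap. The means were 11314 ± 2451 CPM (SD, n = 6) and 6646 ± 789 CPM (SD, n = 7). It fell by 0.77 on the log2 scale (SE 0.124), with an adjusted p = 4.83e-05. Without TMM scaling the shares of hairpin mir-26b overlapped, with 0.815% in the lowest WT library and 0.883% in the highest knockout library. Hairpin mir-26a-1 had 4558, 5456 and 7639 CPM in WT and 3365, 3513 and 5112 CPM in Tet2/3 DKO, and the genotypes overlapped in the range from 4558 to 5112 CPM. Its means were 5665 ± 1105 CPM (SD, n = 6) and 3909 ± 672 CPM (SD, n = 7), and it fell by 0.54 on the log2 scale (SE 0.131), with an adjusted p = 0.00165.

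Counts of mir-26a-2 differed from those of mir-26a-1 by only 2 to 64 counts per library, or 0.0399% to 1.06%. Hairpin mir-26a-2 fell by 0.53 on the log2 scale (SE 0.132), with an adjusted p = 0.0018, and its ratio to mir-26a-1 did not pass the test (difference 0.0039 in mean log2 ratio, exact permutation test, p = 0.0816, adjusted p = 0.114). Reads on the shared stretch, which includes the whole of miR-26a-5p, cannot be assigned to one copy, so these hairpins are in effect 1 measurement, and which of them changed is not known. The longest run that the copies share is 25 bases, and longer reads matched without mismatch would tell them apart. The lengths of the reads counted and the mismatches allowed are not given in the sources used here. What kind of reads make these counts so close was not tested, and they cannot be read as a level of uncut precursor. When libraries were scaled by size only, neither passed the threshold (log2 fold changes of -0.19 and -0.19, adjusted p = 0.186 and 0.198).

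The mir-101 hairpins went opposite ways. Hairpin mir-101a, at only 16 to 93 counts per library, had 22.8, 56.6 and 80.7 CPM (lowest, median and highest) in WT and 18.5, 32.8 and 49.6 CPM in Tet2/3 DKO. It fell by 0.81 on the log2 scale (SE 0.291), with an adjusted p = 0.0229, although the genotypes overlapped. The call was lost without WT 4 (-0.69, adjusted p = 0.0803) or WT 5 (-0.65, adjusted p = 0.079), when libraries were scaled by size only (-0.45, adjusted p = 0.194), and when all hairpins with at least 1 count were fitted (-0.63, adjusted p = 0.0985).

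Hairpin mir-101b had 1013, 1422 and 1745 CPM in WT and 1349, 1728 and 2186 CPM in Tet2/3 DKO, with overlap. The means were 1379 ± 268 CPM (SD, n = 6) and 1775 ± 289 CPM (SD, n = 7), and it rose by 0.36 on the log2 scale (SE 0.135), with an adjusted p = 0.0267. This was the only member called higher. The call was lost with RLE factors (0.27, adjusted p = 0.082), upper-quartile factors (0.12, adjusted p = 0.443), DESeq2 (0.31, adjusted p = 0.0931) and limma-voom (0.30, adjusted p = 0.0546), and without WT 5, DKO 2, DKO 3 or DKO 7 (0.29 to 0.33, adjusted p from 0.0546 to 0.0641). It was 0.71 when libraries were scaled by size only (adjusted p = 0.000592) and 0.55 when all hairpins with at least 1 count were fitted (adjusted p = 0.000814). Relative to the median of all tested hairpins it was between 0.34 and 0.35 under all 4 scalings, because a scaling shifts all hairpins nearly alike. This narrow range is therefore no support for the call.

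**Figure D2:**
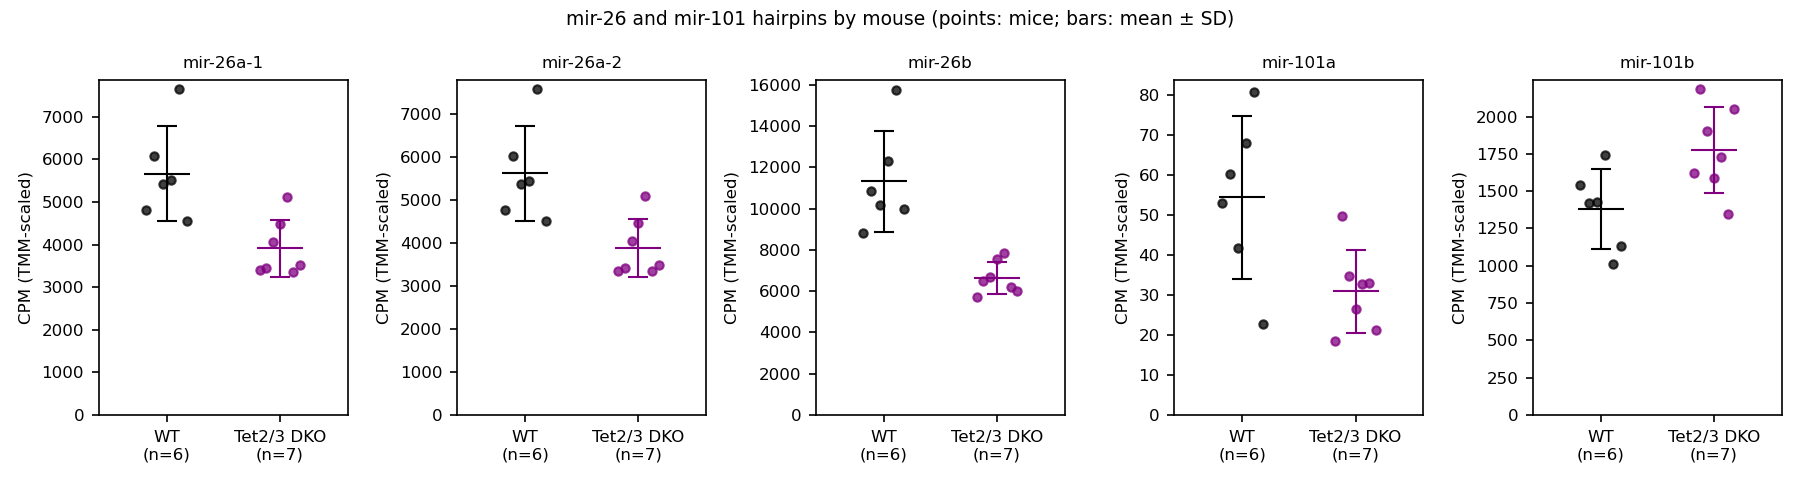
Level of the 5 member hairpins in CPM after TMM scaling (linear vertical axes from 0), with 1 point per mouse and horizontal bars for the mean and SD of 6 WT (black) and 7 Tet2/3 DKO (purple) mice. The panels of mir-26a-1 and mir-26a-2 are nearly the same picture, only mir-26b has no overlap between genotypes, and mir-101b alone has the higher mean in Tet2/3 DKO (1775 against 1379 CPM).

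All 5 member hairpins passed the test, 4 lower and 1 higher, where 59.7% of all tested hairpins passed, 27.1% lower and 32.6% higher. Because mir-26a-1 and mir-26a-2 are in effect 1 measurement, the 4 lower hairpins hold that measurement 2 times. After TMM scaling, 1 of the 5, mir-26b, was lower without overlap, as were 14% of all tested hairpins. None passed an absolute log2 fold change of 2, which 8.29% of all tested hairpins exceeded with a call. Members had a median log2 fold change of -0.54, which is the value of mir-26a-1, against 0.02 over all tested hairpins.

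Within a library, the opposite moves of the mir-101 hairpins added up. The mean log2 ratio of mir-101b to mir-101a hairpin counts was 1.15 higher in Tet2/3 DKO (SE 0.308, exact permutation test, p = 0.0035, adjusted p = 0.0122), with overlap between the genotypes. The mature ratio of miR-101b-3p to miR-101a-3p had the opposite sign (-0.39) and did not pass (exact permutation test, adjusted p = 0.114). The ratio of mir-26b to mir-26a-1 hairpin counts differed in the direction of the mature sequences, by -0.22 (SE 0.0656, exact permutation test, p = 0.00932, adjusted p = 0.0218). These hairpin counts of mir-26b were 179% to 224% of those of mir-26a-1 in WT and 154% to 188% in Tet2/3 DKO.

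The hairpin and mature tables did not give the members one order. Per count of miR-26a-5p, mir-26a-1 had 4.30% to 5.96% as many hairpin counts in WT and 4.51% to 6.73% in Tet2/3 DKO. For mir-26b the figure was 25.2% to 48.0% in WT (median 32.2%) and 40.0% to 56.0% in Tet2/3 DKO (median 47.8%). For mir-101a it was 19.8% to 78.7% in WT and 11.3% to 34.7% in Tet2/3 DKO.

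Hairpin mir-101b stood apart, with more hairpin than mature counts in every library. It had 8.35 to 11.3 hairpin counts per count of miR-101b-3p in WT (median 9.89) and 13.2 to 31.0 in Tet2/3 DKO (median 17.7), without overlap between the genotypes. Over all libraries the value was 15.3, the fourth highest of 151 hairpins whose mature sequences had at least 1000 counts, which had a median of 0.335, and 34 of them were above 1. This comparison was chosen after its values were seen and was not tested. The sources used here do not say whether a read was counted in one table or in both, and the part of the counting rules in this result was not tested.

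**Figure D3:**
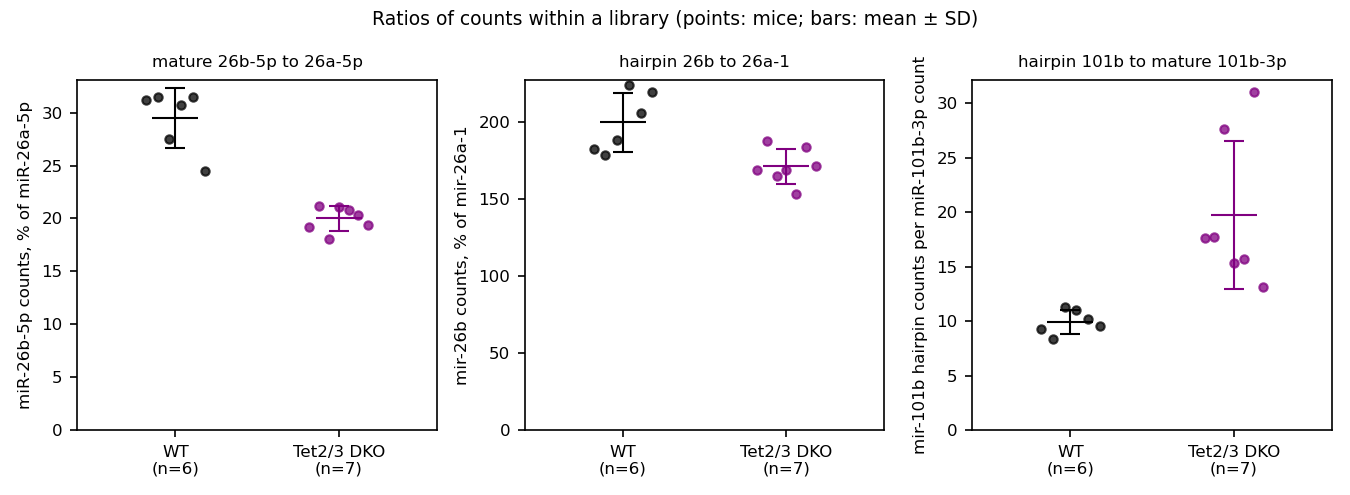
Ratios of counts within a library, with 1 point per mouse and bars for the mean and SD of 6 WT (black) and 7 Tet2/3 DKO (purple) mice. MiR-26b-5p as a percent of miR-26a-5p (left) and hairpin mir-101b counts per miR-101b-3p count (right) do not overlap between genotypes, with WT above at the left (24.5% to 31.5% against 18.1% to 21.1%) and Tet2/3 DKO above at the right, whereas hairpin mir-26b as a percent of mir-26a-1 (centre) overlaps.

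Library scaling moved all members together. When TMM factors were left out, the median of all tested features moved up on the log2 scale by 0.34 for hairpins and 0.25 for mature sequences, and with upper-quartile factors it moved down by 0.24 and 0.16. The split of calls over all features moved with it, from 95 lower and 114 higher hairpins to 56 and 153 with library size and 137 and 93 with upper-quartile factors, and from 110 and 113 mature sequences to 77 and 142 and to 132 and 89. Relative to that median the values over all 4 scalings were -0.67 to -0.66 for miR-26a-5p, -1.25 to -1.23 for miR-26b-5p, -1.45 to -1.42 for miR-26b-3p, -0.12 to -0.10 for miR-101a-3p and -0.46 to -0.44 for miR-101b-3p. Among hairpins they were -0.56 to -0.55 for mir-26a-1, -0.79 to -0.77 for mir-26b and -0.84 to -0.81 for mir-101a. These ranges are narrow because a scaling shifts all features nearly alike, and they are no support for a call.

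**Figure D4:**
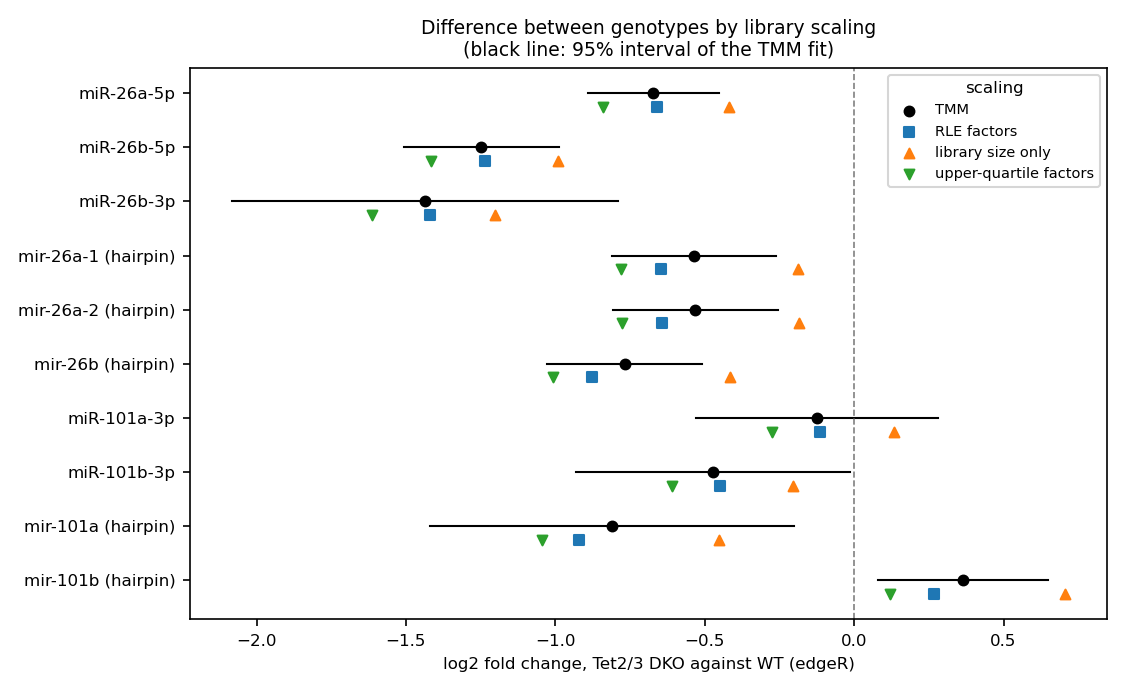
Log2 fold change of Tet2/3 DKO against WT for the 10 tested members (horizontal axis, edgeR), with TMM factors (black circles, with the 95% interval), RLE factors (blue squares), library size only (orange upward triangles) and upper-quartile factors (green downward triangles). The miR-26 values lie left of 0 under all 4 scalings, whereas miR-101a-3p crosses 0 with library size only (0.13).

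Other miRNAs that are known to target the same transcripts moved in both directions. The list held 7 miRNAs that target Tet transcripts (miR-22-3p, miR-29a-3p, miR-29b-3p, miR-29c-3p, miR-7a-5p, miR-7b-5p and miR-125b-5p) and 2 that target Ezh2 (miR-138-5p and miR-214-3p). All 9 were tested and passed, 6 lower and 3 higher, where 55.6% of all tested mature sequences passed, 27.4% lower and 28.2% higher. Their median log2 fold change was -0.77 against -0.01 over all. The list was chosen with earlier results of these data known, so these counts are a description and not independent support. MiR-22-3p, a regulator of Tet2 in blood stem cells, had 316, 387 and 588 CPM (lowest, median and highest) in WT and 111, 131 and 199 CPM in Tet2/3 DKO. It fell by 1.57 on the log2 scale (SE 0.171), with an adjusted p = 1.46e-07 and no overlap.

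The miR-29 sequences, which also target DNA methyltransferases, all fell. MiR-29b-3p went from 2400.0 ± 434 CPM (SD, n = 6) to 1013 ± 261 CPM (SD, n = 7), a log2 fold change of -1.24 (adjusted p = 1.41e-06). MiR-29a-3p had -0.77 (adjusted p = 2.73e-05) and miR-29c-3p -0.55 (adjusted p = 0.0137). MiR-125b-5p was rare and fell from 37.4 ± 19.96 to 6.41 ± 3.94 CPM (SD, n = 6 and 7), with a log2 fold change of -2.55 (adjusted p = 0.000151).

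MiR-7a-5p (0.65, adjusted p = 0.00765) and miR-7b-5p (0.64, adjusted p = 0.00684) rose, each with overlap between genotypes. Of the miRNAs that target Ezh2, miR-138-5p rose from 32.9 ± 4.52 to 62.2 ± 16.9 CPM (SD, n = 6 and 7; log2 fold change 0.92, adjusted p = 0.000735). MiR-214-3p was rare, with 6 to 51 counts in each WT library and 0 to 13 in each knockout library. It fell from 16.3 ± 8.70 to 1.56 ± 1.29 CPM (SD, n = 6 and 7; log2 fold change -3.39, adjusted p = 3.58e-05). The genotypes overlapped for both miR-138-5p and miR-214-3p. MiR-144-3p, which has bases 2 to 7 in common with miR-101a-3p, was too rare to be tested, with 0 to 28 counts in each WT library and 0 to 7 in each knockout library.

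Markers of other cell types moved in the direction of miR-26. Of 11 miRNAs of red cells, myeloid cells, hepatocytes, stroma, endothelium and epithelium, 9 were tested, of which 8 were lower in Tet2/3 DKO and miR-126a-3p, an endothelial miRNA, was higher, where 27.4% of all tested mature sequences were called lower and 28.2% higher. None was at 0 in every library. Their summed level was 1087 to 2327 CPM in WT and 499 to 835 CPM in Tet2/3 DKO, without overlap. Its largest part was miR-200c-3p, with a mean of 792 CPM for WT mice and 429 CPM for knockout mice. The hepatocyte marker miR-122-5p varied widely among WT libraries, from 46.9 to 883 CPM. How much miR-26 or miR-101 such cells carry was not measured, so the size of the sum does not show what they contribute. The part of other cells in any of these differences was not tested.

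By its course over the 13 libraries, miR-26a-5p was most like miR-30e-5p, let-7g-5p and miR-361-5p. The root mean square difference in centred log2 CPM was 0.18, 0.19 and 0.19, against a median of 0.51 over 160 mature sequences with a mean of at least 100 CPM. Their log2 fold changes were -0.53, -0.72 and -0.40. Likeness was measured over both genotypes, so the genotype difference is part of what chose these sequences, and their values are a description with no test. MiR-101a-3p was most like miR-27a-3p, miR-142a-3p and miR-148b-3p, at 0.26, 0.26 and 0.28. Their log2 fold changes were -0.11, -0.41 and -0.14, again as a description.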

How the data were processed

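Small RNA libraries of 13 mice were analysed, 6 WT and 7 Tet2/3 DKO, grouped by the genotype and number in the sample labels. The authors deposited raw counts per hairpin and raw counts per mature sequence, whole numbers with no normalization, made with nf-core/smrnaseq (version 2.2.4 and build mm10 in the submitters' processing notes) with default parameters. The aligner, the miRNA database release and how reads matching several sequences were treated are not given in the sources used here. The sources used here name no molecular identifiers for the reads, so limits from counts cover counting error only. Libraries of one genotype differed by more than sampling noise (chi-square per degree of freedom at least 15.0).

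Each whole table was filtered by filterByExpr (minimum count 10, minimum total 15), scaled by TMM and fitted with edgeR 4.0.16 (robust quasi-likelihood, genotype only, R 4.3.3), with p-values adjusted by Benjamini-Hochberg within the table. The step was tested on simulated data. Ratios were log2 of counts plus 0.5, tested by exact two-sided permutation (scipy 1.17.1), provided that the rarer part had a median of at least 5 counts in a genotype. The standard error is that of the difference. The 3′ UTRs come from the exons and stop codons of the GENCODE annotation of GRCm38. Alternatives used DESeq2 1.42.0 and limma 3.58.1 (voom with sample weights), other scalings and filters, a replicate block, pseudocount 1, and leaving out each mouse.

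The members and lists were chosen with earlier results of these data known. Genes named are the members, the listed miRNAs of Tet and Ezh2 transcripts, the marker miRNAs and the 3 sequences most like miR-26a-5p and miR-101a-3p.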

Additional observations from a re-analysis of the deposited data

Results flagged for a closer look

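No library stood far from the others of its genotype by Dixon's criterion for any member, in 0 of 34 groups of values checked, where chance alone would flag 1.7.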

How the results depend on the processing

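The calls of miR-26a-5p, miR-26b-5p, miR-26b-3p and hairpin mir-26b held under every scaling, filter, tool and left-out mouse tried. With log2 fold changes of -0.84 to -0.42, -1.42 to -0.99 and -1.61 to -1.20 for the mature ones over the scalings, filters, tools and the block, the size depended on the scaling. The number of member hairpins called higher, 1 with TMM factors, was 0 with RLE factors, upper-quartile factors, DESeq2 and limma-voom, and 0 to 1 with a mouse left out. The number called lower, 4 with mir-26a-1 and mir-26a-2 both counted, was 1 with library size only, and 3 to 4 with a mouse left out. Mature members called lower numbered 3 to 4 and called higher 0 to 0 with a mouse left out. MiR-101a-3p changed sign with library size only (0.13, adjusted p = 0.632). MiR-101b-3p passed the threshold with upper-quartile factors (-0.61, adjusted p = 0.0387), limma-voom (-0.57, adjusted p = 0.025) and the replicate block (-0.69, adjusted p = 0.00859). Hairpin mir-101a missed it with all hairpins of at least 1 count (-0.63, adjusted p = 0.0985) and with the replicate block (-0.72, adjusted p = 0.0547). Where a setting changed a call and no value above shows why, the cause was not tested.

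The labels do not say that a replicate number marks a shared litter, batch or day, and the data did not settle whether the numbers pair the mice, so the fit without a block was kept. Same-numbered mice deviated together with correlations of -0.05 to 0.34 for hairpins and 0.01 to 0.34 for mature sequences, and 3 and 2 of 6 WT libraries were closest to their own number. The block used the 6 numbers both genotypes have, without DKO 7. For ratios it permutes signs over 6 pairs, which cannot give a p under 0.0312 before adjustment, and gave -0.55 for miR-26b-5p to miR-26a-5p, 1.04 for mir-101b to mir-101a and -0.22 for mir-26b to mir-26a-1 (exact permutation test, adjusted p = 0.0875 for each).

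With a mouse left out, the difference in mean log2 ratio was -0.61 to -0.53 for miR-26b-5p to miR-26a-5p, -0.49 to -0.27 for miR-101b-3p to miR-101a-3p, 0.0028 to 0.0053 for mir-26a-2 to mir-26a-1 (past the threshold only without DKO 1), 0.94 to 1.33 for mir-101b to mir-101a, -0.25 to -0.19 for mir-26b to mir-26a-1 and 0.95 to 1.77 for miR-26a 3p to 5p. Hairpin mir-101a and miR-26b-3p had as few as 16 counts in a library, which limits the precision of both. The miR-26a 3p counts were fewer still, and the ratio of miR-26a 3p to 5p cannot decide whether the genotypes differ.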
